A study of Mus musculus with 4 samples.

Results

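Pax6, Rax, Lhx2, Six3, Six6, Meis1 and Meis2 were examined as the homeobox transcription factors of the eye field and of retinal progenitors. They were chosen by gene symbol, and all 7 were found among the 21830 genes analyzed, each on 1 line of the deposited tables. RNA had been prepared from retinas of FVB/N mice, given no particular treatment, at postnatal day 1 (P1) and postnatal day 4 (P4). The mice carried a transgene in which a Hes1 promoter fragment drives a destabilized EGFP (pHes1-EGFP), and the retinal cells were sorted into EGFP-positive cells (pHes1_EPC) and EGFP-negative cells (pHes1_ENC). The 4 groups were therefore P1 pHes1_ENC, P1 pHes1_EPC, P4 pHes1_ENC and P4 pHes1_EPC, all from retinas of the same reporter line, with 1 library in each. The number of animals behind a library is not given in the sources used here. The sort separates cells by the activity of the transgene and not by cell type, and in bulk libraries fewer cells of a type and less RNA per cell cannot be told apart.

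The eye field is the patch of the anterior neural plate from which both eyes form, and homeobox factors of several classes are expressed together there. The same factors stay on in retinal progenitors, where they support proliferation and the competence to make neurons, and several of them persist in particular cell types of the mature retina. Pax6 is kept in amacrine, horizontal and ganglion cells, Meis2 marks subsets of amacrine cells, and Rax and Lhx2 are kept in Müller glia, among the last cells to leave the progenitor pool.

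The 7 genes belong to different homeobox classes, and the pairs Six3 and Six6, and Meis1 and Meis2, are close relatives. The homeobox is the stretch of coding sequence for the DNA-binding homeodomain, and those of the 2 pairs are shown because reads of 36 bases have to tell the paralogues apart if their levels are to be compared. Each was located in the coding sequence of the NCBI37/mm9 annotation (GENCODE M1) by the codons of the recognition helix. What is shown is a fixed window of 180 bases placed from these codons. It is written 5′ to 3′ with the bases that differ within the pair in capitals. The homeoboxes of Meis1 and Meis2 are longer than this window, which leaves out their first codons.
Six3: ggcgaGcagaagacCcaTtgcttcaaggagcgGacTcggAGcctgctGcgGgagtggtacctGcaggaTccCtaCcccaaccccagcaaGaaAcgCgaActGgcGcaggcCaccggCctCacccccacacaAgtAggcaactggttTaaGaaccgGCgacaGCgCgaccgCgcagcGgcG
Six6: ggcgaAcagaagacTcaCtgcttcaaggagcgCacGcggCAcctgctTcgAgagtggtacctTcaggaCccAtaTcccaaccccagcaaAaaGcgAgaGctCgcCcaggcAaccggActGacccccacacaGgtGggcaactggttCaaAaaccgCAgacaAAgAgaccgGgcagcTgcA
Meis1: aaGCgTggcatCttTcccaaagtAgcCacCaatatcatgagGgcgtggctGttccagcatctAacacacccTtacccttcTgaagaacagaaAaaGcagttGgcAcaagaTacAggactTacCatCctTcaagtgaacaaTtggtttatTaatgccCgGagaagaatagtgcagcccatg
Meis2: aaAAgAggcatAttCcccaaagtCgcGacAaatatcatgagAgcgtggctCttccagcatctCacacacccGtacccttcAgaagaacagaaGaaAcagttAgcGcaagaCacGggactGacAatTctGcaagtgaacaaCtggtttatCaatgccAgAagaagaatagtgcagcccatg

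Six3 and Six6 differed at 34 of the 180 bases (81.1% identical), and the longest run without a difference was 14 bases. Only 1 of the 60 codons encoded another residue. Meis1 and Meis2 differed at 27 bases (85% identical) with a longest shared run of 21 bases, and 0 of the 60 codons encoded another residue. In both pairs the bases in capitals lay closer together than the length of a read. Across whole coding sequences, 0 of the 36-base words of any of the 7 genes occurred in an annotated protein-coding transcript of another gene, on either strand. A read that lies within the coding sequence of Meis1 therefore could not match Meis2 without a mismatch, and the same held for Six3 and Six6. Over whole transcripts, compared among the 7 genes, a few words outside the coding sequences were shared. Six3 shared 5 with Meis1, 4 with Pax6 and 3 with Meis2, and Meis1 shared 2 with Pax6. Meis1 and Meis2 shared 0, as did Six3 and Six6.

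In NCBI37/mm9 the line of Pax6 spans chr2:105516602-105537226 and that of Lhx2 chr2:38206828-38225248, both on the plus strand. Six3 lies at chr17:86020174-86025531 and Six6 at chr12:74040932-74045886, also on the plus strand. Meis1 spans chr11:18780431-18918972 and Meis2 chr2:115687000-115890794, both on the minus strand. All are annotated as protein-coding genes, and no other line of the tables overlapped the span of any of the 7 genes. The annotated Pax6 gene begins at 105509053 and ends at 105543317, so the deposited line covers only a part of it. The same held for Lhx2, annotated from 38194801 to 38225253, and for Six3, annotated from 86012948 to 86031153. The annotated span of Meis2 also ran past its line, to 115891575.

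The 250 bases before the start of transcription are shown for 3 genes, which include the gene farthest towards pHes1_EPC. These had a RefSeq start (GRCm38.p6 table) that coincided with the start of the deposited line, and a window without an annotated exon. A further Lhx2 window, before a start at 38194801, is not shown. A window had been given for 6 of the 7 genes. Each sequence was found at a single place in NCBI37/mm9, which is chr2:38206578-38206827 (plus strand) for Lhx2, chr17:86019924-86020173 (plus strand) for Six3 and chr11:18918973-18919222 (minus strand) for Meis1. They are written 5′ to 3′ along the strand of the gene, and capitals mark TGGGAA (the core bound by RBPJ, the DNA-binding partner of Notch), TGACAG (a Meis core) and TAATTA (a homeodomain core), on either strand.
Lhx2: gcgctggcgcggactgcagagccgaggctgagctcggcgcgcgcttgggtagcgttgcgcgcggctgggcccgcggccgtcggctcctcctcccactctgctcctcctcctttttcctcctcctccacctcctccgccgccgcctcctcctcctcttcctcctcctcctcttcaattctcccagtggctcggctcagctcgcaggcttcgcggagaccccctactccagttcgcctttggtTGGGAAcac
Six3: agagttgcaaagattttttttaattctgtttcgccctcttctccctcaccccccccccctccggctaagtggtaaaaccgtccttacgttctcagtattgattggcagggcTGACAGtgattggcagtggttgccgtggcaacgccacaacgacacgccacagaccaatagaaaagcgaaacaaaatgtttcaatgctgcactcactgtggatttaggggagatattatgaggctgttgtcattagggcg
Meis1: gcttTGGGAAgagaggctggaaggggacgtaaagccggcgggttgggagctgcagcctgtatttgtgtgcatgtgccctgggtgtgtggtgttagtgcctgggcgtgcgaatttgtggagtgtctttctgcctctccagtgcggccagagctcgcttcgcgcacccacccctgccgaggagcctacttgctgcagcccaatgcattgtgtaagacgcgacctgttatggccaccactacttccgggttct

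The Lhx2 and Meis1 windows each held 1 TGGGAA, a motif found in 21.6% of the 32851 RefSeq windows of the same length. The Six3 window held 1 TGACAG, which was present in 15.9% of all windows. TAATTA was in none of the 3 and in 4.84% of all windows. These matches are descriptions of the letters and were not tested for binding.

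The values are FPKM (fragments per kilobase of transcript, scaled to the number of mapped fragments), so levels of different genes are comparable per length. Each value comes with the 95% interval that Cufflinks gave it, which covers counting and assignment error and not the spread between animals or sorts. All 28 values of the 7 genes had the status OK, and the half-width of the interval was between 2.06% and 9.27% of the value. For 13 of the 28 values the FPKM lay above its own interval, including all 4 of Rax, whose interval was centred near 88.7% of the FPKM in each library. Ratios below are given with the range that the intervals of both libraries allow. Since a group holds 1 library, the groups could not be tested against each other, and all differences are descriptions of these libraries.

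The sort was visible in Hes1 and Hes5, which were both more than 2-fold higher in pHes1_EPC at P1 and at P4, and their summed FPKM was 81.4 and 387 in P1 pHes1_ENC and pHes1_EPC and 19.9 and 417 at P4. Lens markers were near 0, and 0 of 7 reached an FPKM of 1 in any library. Among the 12941 genes that reached an FPKM of 1 somewhere, the median difference of log2(FPKM + 1), pHes1_EPC minus pHes1_ENC, was 0.02 at P1 and 0.15 at P4. The P4 shift depended on the scaling, being -0.10 with the FPKM rescaled to the same total, -0.02 with median-of-ratios scaling and -0.03 after quantile normalization.

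**Figure D1:**
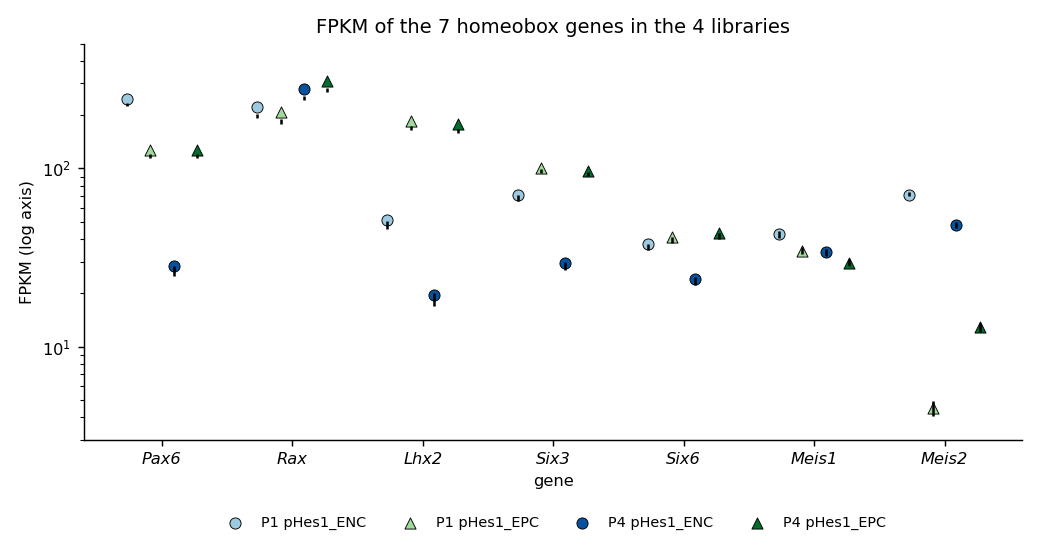
FPKM (log axis) of each of the 7 genes in the 4 libraries, with circles for pHes1_ENC, triangles for pHes1_EPC, light colours for P1 and dark colours for P4, and vertical lines for the 95% Cufflinks interval. Rax stays between 207 and 311 in all 4 libraries, Pax6, Lhx2 and Six3 are lowest in P4 pHes1_ENC, and Meis2 is low in both pHes1_EPC libraries.

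At P1 the 7 genes fell on both sides of the sort. Lhx2 was the only one more than 2-fold higher in pHes1_EPC and Meis2 the only one more than 2-fold lower. The share of all 12941 genes past the same threshold was 10.3% for higher and 11.5% for lower. The median difference of the 7 genes was -0.10 on the log2(FPKM + 1) scale, beside 0.02 for all genes. At P4, Pax6, Lhx2 and Six3 were more than 2-fold higher in pHes1_EPC and Meis2 was again more than 2-fold lower, that is 3 and 1 of 7, while 16.6% and 9.15% of all genes were past the threshold. These shares were 14.8% and 16% with the FPKM at the same total, 13.1% and 11.6% with median-of-ratios scaling and 11.9% and 12% after quantile normalization, and the 4 calls among the 7 genes kept their direction under each. With the FPKM as deposited, the median difference of the 7 genes at P4 was 0.83, against 0.15 for all genes.

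Rax (retina and anterior neural fold homeobox) is among the earliest genes of the eye field and is needed for an eye to form. Its FPKM was 222 (pHes1_ENC) and 207 (pHes1_EPC) at P1 and 280 (pHes1_ENC) and 311 (pHes1_EPC) at P4. It was the highest of the 7 genes in every library except P1 pHes1_ENC, where Pax6 was higher, and its 4 values were all within 1.51 times of each other. The ratio of pHes1_EPC to pHes1_ENC was 0.931 at P1 (range 0.880 to 0.984) and 1.11 at P4 (1.06 to 1.17). The direction at P4 turned with the scaling, since the log2 difference of 0.15 became -0.14 at the same total, -0.05 with median-of-ratios scaling and -0.25 after quantile normalization. At P1 the log2 difference lay between -0.32 and -0.10 under every scaling and pseudocount tried.

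Lhx2, a LIM homeobox factor required for eye formation and later for Müller glia, was the gene that separated the fractions most in the direction of pHes1_EPC. Its FPKM was 51.4 in P1 pHes1_ENC and 184 in P1 pHes1_EPC, and 19.5 in P4 pHes1_ENC and 177 in P4 pHes1_EPC. Both pHes1_EPC libraries stood above both pHes1_ENC libraries, and the intervals of the pHes1_EPC libraries overlapped. The ratio was 3.58 at P1 (3.27 to 3.82) and 9.03 at P4 (7.90 to 9.86). The wider ratio at P4 came with a lower value in pHes1_ENC, 2.63 times below that of P1 (2.27 to 2.98), while the pHes1_EPC values had a log2 difference of -0.06.

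Six3 and Six6 are sine oculis class factors, which act largely as repressors through Groucho corepressors in the eye field and in progenitors. Six3 had an FPKM of 71.2 (pHes1_ENC) and 101 (pHes1_EPC) at P1 and 29.3 (pHes1_ENC) and 97.1 (pHes1_EPC) at P4. The pHes1_EPC libraries were again the higher pair, with overlapping intervals, and the ratio of pHes1_EPC to pHes1_ENC was 1.42 at P1 (1.33 to 1.502) and 3.32 at P4 (3.03 to 3.56). Six6 had an FPKM of 37.5, 41.2, 24.0 and 43.4 in the same order. Its ratio was 1.10 at P1 (1.01 to 1.19) and 1.81 at P4 (1.64 to 1.97), so it was higher in pHes1_EPC at both ages, as Six3 was, and stayed within 2-fold. The homeoboxes of the pair, shown above, differ in every stretch as long as a read.

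Pax6 carries both a paired domain and a homeodomain and is the factor whose loss leaves the eye small or absent. Its difference between the fractions had opposite signs at P1 and P4. Its FPKM was 246 in P1 pHes1_ENC and 127 in P1 pHes1_EPC, but 28.3 in P4 pHes1_ENC and 126 in P4 pHes1_EPC. P1 pHes1_ENC was the highest library and P4 pHes1_ENC the lowest, with both pHes1_EPC libraries between them. At P1 Pax6 was 1.94 times higher in pHes1_ENC (1.84 to 2.04), just inside the 2-fold threshold, and at P4 it was 4.46 times higher in pHes1_EPC (4.03 to 4.83). On the log2(FPKM + 1) scale the difference was -0.95 at P1 and 2.12 at P4. The P1 difference was -1.04 with the FPKM rescaled to the same total and -1.22 after quantile normalization, which put it past the threshold.

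Markers of amacrine cells, which keep Pax6, were also highest in P1 pHes1_ENC in sum. All 9 amacrine markers were more than 2-fold lower in pHes1_EPC at P1, and 8 of 9 were more than 2-fold lower at P4 than at P1 within pHes1_ENC, with Slc6a9, a glycine transporter, more than 2-fold higher instead. Their summed FPKM was 324 (pHes1_ENC) and 18.8 (pHes1_EPC) at P1 and 91.5 (pHes1_ENC) and 23.7 (pHes1_EPC) at P4. Slc6a9 alone gave 62.6 of the sum in P4 pHes1_ENC and 10.1 in P4 pHes1_EPC, against 19.1 and 1.72 at P1. Tfap2b (Tcfap2b in the tables), a factor that defines amacrine cells, had an FPKM of 109, 2.19, 7.93 and 1.24 in the same order, and none of the 9 was at 0. Ganglion cell markers, another Pax6-expressing type, summed to 39.3, 21.4, 8.72 and 7.03. Horizontal cell markers summed to 27.5, 24.6, 15.4 and 19.3, and were thus higher in pHes1_EPC at P4 in sum. Prox1 gave most of each sum, at 17.6, 23.2, 10.8 and 18.1 in the same order. Onecut1 and Onecut2 were lower in pHes1_EPC at both ages. Of the 3 markers that reached an FPKM of 1, 0 were more than 2-fold higher in pHes1_EPC at P4 and 1 was more than 2-fold lower. Rod markers in pHes1_ENC summed to 450 at P1 and 2801 at P4. The part of these cell types in the Pax6 values was not tested. The pigment epithelium list summed to 1.52, 0.864, 3.93 and 32.9, of which Ttr gave 23.1 in P4 pHes1_EPC.

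**Figure D2:**
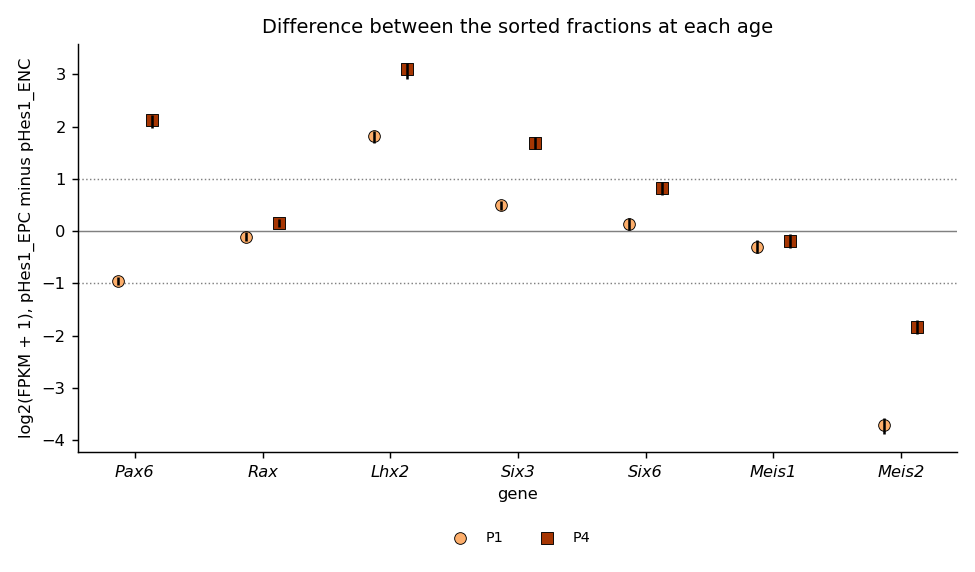
Difference between the fractions, pHes1_EPC minus pHes1_ENC on the log2(FPKM + 1) scale, for each of the 7 genes at P1 (circles) and P4 (squares), with vertical lines for the range allowed by the Cufflinks intervals and dotted lines at the 2-fold threshold. Pax6 lies at -0.95 at P1 and 2.12 at P4, Lhx2 is above the upper threshold at both ages, and Meis2 is below the lower threshold at both.

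Meis1 and Meis2 are TALE homeodomain factors that bind DNA with Pbx partners and regulate Pax6 in the early eye. Although the 60 homeobox codons compared above encode the same residues, their levels differed. Meis1 had an FPKM of 42.6 (pHes1_ENC) and 34.4 (pHes1_EPC) at P1 and 33.7 (pHes1_ENC) and 29.5 (pHes1_EPC) at P4. The 4 values were within 1.44 times of each other, and the intervals of P1 pHes1_EPC and P4 pHes1_ENC overlapped. The ratio of pHes1_ENC to pHes1_EPC was 1.24 at P1 (1.13 to 1.35) and 1.14 at P4 (1.04 to 1.26).

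Meis2 had an FPKM of 71.0 (pHes1_ENC) and 4.51 (pHes1_EPC) at P1 and 48.0 (pHes1_ENC) and 12.8 (pHes1_EPC) at P4. Both pHes1_ENC libraries were above both pHes1_EPC libraries. It was 15.8 times higher in pHes1_ENC at P1 (14.2 to 18.0) and 3.75 times higher at P4 (3.42 to 4.16). In P1 pHes1_EPC it was the lowest value of any of the 7 genes, and Meis1 was then the more abundant paralogue, whereas Meis2 was the more abundant in both pHes1_ENC libraries. Of the 9 amacrine markers given above, 9 were more than 2-fold lower in pHes1_EPC at P1 and 6 at P4, while at P4 Gad2 (2.78 in pHes1_ENC, 5.43 in pHes1_EPC) and Barhl2 (2.24 and 2.65) had the higher FPKM in pHes1_EPC. The direction was not particular to amacrine markers. Of the 6 rod markers, 5 were more than 2-fold lower in pHes1_EPC at P1 and 6 at P4. Of the 5 cone markers with an FPKM of at least 1, 4 were lower at each age. Of the 6 such ganglion cell markers, 2 were lower at P1 and 0 at P4. The part of these cell types in the Meis2 values was not tested.

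Read by library, the order of the 7 genes shifted more in pHes1_ENC than in pHes1_EPC. In P1 pHes1_ENC the order from high to low was Pax6, Rax, Six3, Meis2, Lhx2, Meis1 and Six6, and the intervals of Six3 and Meis2 overlapped. In P4 pHes1_ENC it was Rax, Meis2, Meis1, Six3, Pax6, Six6 and Lhx2, with overlapping intervals for Six3 and Pax6. In pHes1_EPC the order was Rax, Lhx2, Pax6, Six3, Six6, Meis1 and Meis2 at both ages.

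Between the ages, 4 of the 7 genes had similar deposited FPKM in pHes1_EPC. Pax6, Lhx2, Six3 and Six6 had log2 differences, P4 minus P1, of -0.00267, -0.06, -0.06 and 0.07 in pHes1_EPC, and for each of the 4 the intervals at P1 and P4 overlapped. The other scalings gave lower values at P4, since the log2 differences of Pax6, Lhx2 and Six3 were -0.34, -0.39 and -0.39 with the FPKM at the same total, -0.18, -0.24 and -0.23 with median-of-ratios scaling and -0.42, -0.50 and -0.44 after quantile normalization. The sign for Six6 turned negative with the FPKM at the same total (-0.26), with median-of-ratios scaling (-0.10) and after quantile normalization (-0.18). Meis2 was the only one of the 7 genes past the 2-fold threshold in pHes1_EPC, 2.84 times higher at P4 (2.44 to 3.33), where 7.04% of all genes were higher and 4.33% lower (5.29% and 10.4% at the same total, 4.74% and 6% with median-of-ratios scaling, 4.57% and 5.76% after quantile normalization). Rax was 1.51 times higher at P4 in pHes1_EPC (1.43 to 1.59), a log2 difference of 0.59 that was 0.04 after quantile normalization. Meis1 was 1.16 times lower at P4 (1.06 to 1.28). The median over the 7 genes was -0.00267, beside 0.17 for all genes, and this shift of all genes was -0.11 at the same total, 0.03 with median-of-ratios scaling and 0.02 after quantile normalization. Cell cycle genes did not hold their level in the same libraries. The S phase list summed to 1021 in P1 pHes1_EPC and 408 in P4 pHes1_EPC, with 8 of 8 genes more than 2-fold lower at P4, and the mitosis list summed to 599 and 229, with 6 of 8 lower. Müller glia markers summed to 1043 and 2340, with 4 of the 8 that reached an FPKM of 1 more than 2-fold higher, and rod markers summed to 27.8 and 521, with 6 of 6 more than 2-fold higher. The part of cycling cells, glia and rods in the levels of the 7 genes was not tested.

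In pHes1_ENC, 3 of the 7 genes, Pax6, Lhx2 and Six3, were more than 2-fold lower at P4 than at P1, and 0 were more than 2-fold higher, with 10% and 4.67% of all genes past the threshold in the same directions. These shares were 15.6% and 4.83% at the same total, 9.95% and 4.82% with median-of-ratios scaling and 7.8% and 5.82% after quantile normalization, and the lower share was 15.4% with a pseudocount of 0.1 and 16.2% with none. Pax6 was 8.67 times lower (7.87 to 9.31), Lhx2 2.63 times and Six3 2.43 times lower (2.21 to 2.64). Six6 was 1.56 times lower (1.41 to 1.71), Meis2 1.48 times and Meis1 1.26 times lower. Rax was 1.26 times higher (1.19 to 1.33), which turned to a log2 difference of -0.03 after quantile normalization. The median over the 7 genes was -0.62, against -0.01 for all genes. In the same library the S phase list summed to 203 at P1 and 84.1 at P4 and the mitosis list to 168 and 19.8, with 8 of 8 mitosis genes more than 2-fold lower, and the part of cycling cells in the P1 pHes1_ENC values was not tested.

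**Figure D3:**
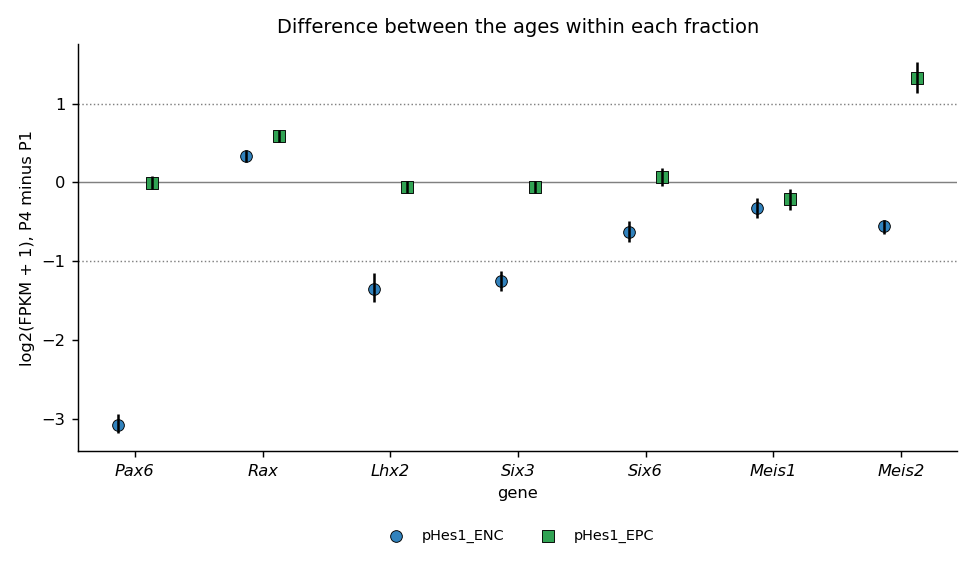
Difference between the ages, P4 minus P1 on the log2(FPKM + 1) scale, within pHes1_ENC (circles) and pHes1_EPC (squares), with vertical lines for the range allowed by the Cufflinks intervals and dotted lines at the 2-fold threshold. Pax6, Lhx2 and Six3 lie below the lower threshold in pHes1_ENC and near 0 in pHes1_EPC with the FPKM as deposited, and Meis2 lies at -0.56 and 1.33.

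**Figure D4:**
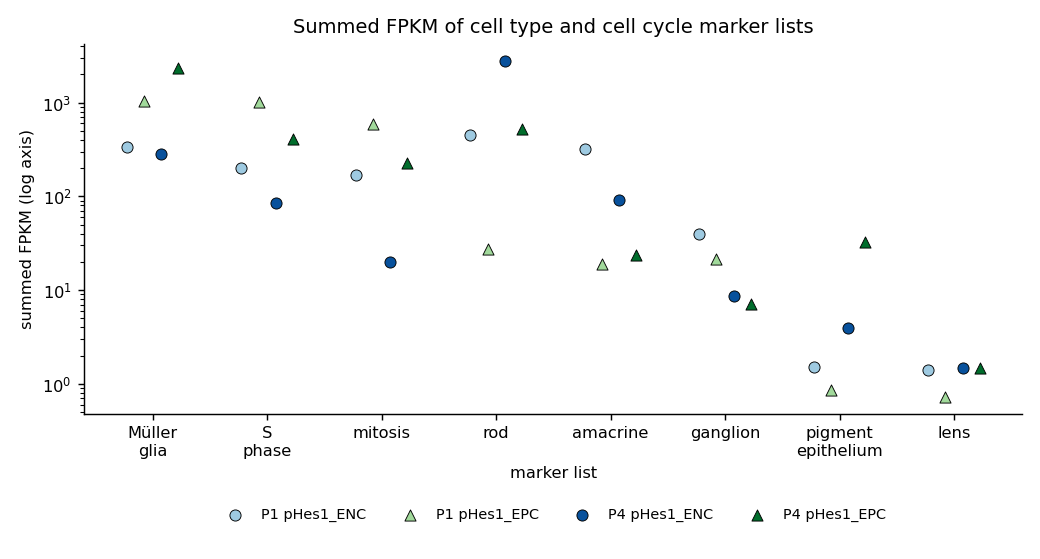
Summed FPKM (log axis) of 8 lists of cell type and cell cycle markers in the 4 libraries, with circles for pHes1_ENC, triangles for pHes1_EPC, light colours for P1 and dark colours for P4. The amacrine list is at 324 in P1 pHes1_ENC and at most 91.5 elsewhere, in P4 pHes1_ENC, where Slc6a9 gave 62.6. The S phase and mitosis lists are lowest in P4 pHes1_ENC, and the pigment epithelium list is highest in P4 pHes1_EPC at 32.9.

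The partners and relatives of the 7 genes were taken as 5 lists of 68 genes, all present in the tables, of which 55 reached an FPKM of 1. At P1, 6 were more than 2-fold higher and 16 more than 2-fold lower in pHes1_EPC (10.9% and 29.1%), and at P4 18 were higher and 9 lower (32.7% and 16.4%). The corresponding shares of all genes were those given above, 10.3% and 11.5% at P1 and 16.6% and 9.15% at P4. Their median difference was -0.17 at P1 and 0.44 at P4.

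Pbx and Tgif genes belong with Meis to the TALE class, and Tgif proteins are repressors that compete for Meis-like sites. Of the 9 other TALE genes, 4 were more than 2-fold higher in pHes1_EPC at P4 (Tgif1, Tgif2, Pknox2 and Pbx4) and 1 was lower (Pbx3), with a list median of -0.34. Tgif1 had an FPKM of 14.7 (pHes1_ENC) and 29.8 (pHes1_EPC) at P1 and 9.56 (pHes1_ENC) and 50.1 (pHes1_EPC) at P4. Pbx3 had 14.9, 8.82, 9.74 and 3.83 in the same order. Meis3, the remaining Meis paralogue, had 24.9, 7.61, 18.3 and 14.2, so that it was more than 2-fold lower in pHes1_EPC at P1 (log2 difference -1.59) and not at P4 (-0.34).

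Eya and Dach proteins are cofactors of sine oculis class factors, and Tle proteins are the Groucho corepressors that Six3 and Six6 recruit. Of the 11 such genes with an FPKM of at least 1, 3 were more than 2-fold higher in pHes1_EPC at P4 (Eya2, Tle1 and Eya4) and 1 was lower (Tle2), with a median of 0.45. Tle1 had an FPKM of 17.0, 31.1, 10.7 and 30.0 in the order P1 pHes1_ENC, P1 pHes1_EPC, P4 pHes1_ENC and P4 pHes1_EPC, the order of libraries also seen for Six3. Tle2 had 8.56, 0.756, 28.7 and 3.82, and was the lowest of its list in pHes1_EPC at P4 relative to pHes1_ENC (log2 difference -2.63). Eya2 was the highest of the list on the same scale (1.54), at an FPKM of 2.76, 2.13, 1.67 and 6.77.

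Ldb proteins bridge LIM factors such as Lhx2, and LIM-only (Lmo) proteins compete with LIM homeodomain proteins for Ldb. Of 9 LIM cofactor genes with an FPKM of at least 1, Ldb2 and Lmo4 were more than 2-fold higher in pHes1_EPC at P4, and Lmo1 and Lmo2 lower, with a list median of -0.07. Ldb2 had an FPKM of 4.78, 9.89, 1.84 and 13.1 in the same order of libraries. Ldb1, the major form, had 166, 130, 103 and 149 and stayed within 2-fold in all comparisons. Lmo1 had 16.5, 0.834, 73.1 and 17.8. Lmo4 had 60.0, 26.6, 9.79 and 27.1, an order of libraries like that of Pax6, with log2 differences of -1.14 at P1 and 1.38 at P4.

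Among 21 paralogues of Pax6, Six3, Six6 and Lhx2, 10 reached an FPKM of 1, and 8 of these were more than 2-fold lower in pHes1_EPC at P1, with a median of -1.27. At P4 4 were lower and 1 higher, with a median of -0.68. The medians depended on the pseudocount and scaling, at -2.99 and -1.02 with a pseudocount of 0.1, -3.95 and -1.21 with none, and -2.32 and -1.10 at the same total. Lhx9, the nearest relative of Lhx2, had an FPKM of 29.2 in P1 pHes1_ENC and 1.05 in P1 pHes1_EPC, the opposite side of the sort to Lhx2, and 1.11 and 1.19 at P4. Lhx4 had 14.9, 0.879, 20.4 and 4.67. Pax7, a paralogue of Pax6 known from muscle and neural crest, was the lowest of the list at P4 (log2 difference -2.07), at 1.19, 0.0843, 10.05 and 1.63. Six5 was the only paralogue higher in pHes1_EPC, with an FPKM of 2.99, 12.8, 0.696 and 6.20.

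The other eye field and progenitor factors followed the pattern of Lhx2 and Six3 in part. Of 16 genes, 4 were more than 2-fold higher in pHes1_EPC at P1 and 8 at P4, and 1 was lower at each age, with medians of 0.09 and 1.07. Sox2, a progenitor factor kept in Müller glia, had an FPKM of 34.4, 119, 8.44 and 117 in the same order of libraries and the largest difference of the list at P4 (3.64). Otx2, which is needed for photoreceptor and pigment epithelium fate, was the 1 gene lower in pHes1_EPC, at 509, 41.8, 835 and 292. Within pHes1_ENC 7 of the 16 were more than 2-fold lower at P4 and 0 were higher, beside 10% and 4.67% of all genes.

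**Figure D5:**
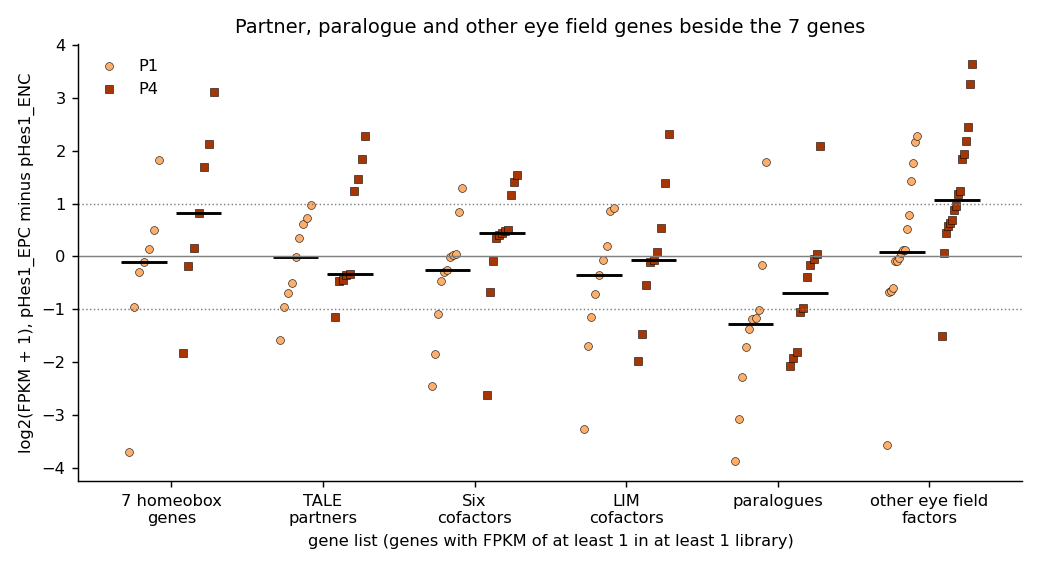
Difference between the fractions, pHes1_EPC minus pHes1_ENC on the log2(FPKM + 1) scale, at P1 (circles) and P4 (squares) for the 7 homeobox genes and for the genes of the 5 lists with an FPKM of at least 1, with a bar at the median of each column and dotted lines at the 2-fold threshold. The medians of the other eye field factors are 0.09 at P1 and 1.07 at P4, and those of the paralogues are -1.27 and -0.68, which were -3.95 and -1.21 with no pseudocount.

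Beside the lines of 2 of the 7 genes lie noncoding genes on the opposite strand. Six3os1, a noncoding RNA transcribed away from Six3, had an FPKM of 79.7 (pHes1_ENC) and 166 (pHes1_EPC) at P1 and 22.9 (pHes1_ENC) and 118 (pHes1_EPC) at P4, and was 2.09 times higher in pHes1_EPC at P1 (1.96 to 2.25) and 5.16 times at P4 (4.71 to 5.79), the direction of Six3 at both ages. Pax6os1, whose line ends before that of Pax6 begins, had 2.91, 4.20, 0.374 and 4.24. It was higher in pHes1_EPC at P4 like Pax6, and at P1 its intervals overlapped (ratio 1.44, range 0.919 to 2.27), where Pax6 was lower. Elp4, an Elongator subunit gene that ends next to the Pax6 line, had 7.73, 9.83, 6.39 and 12.2. Although the lines do not overlap, the annotated Pax6 gene overlaps the lines of Pax6os1 (to 105510487) and Elp4 (from 105540266). The annotated Six3 gene overlaps the line of Six3os1 (to 86017736). The library preparation is not described as marking the strand, so reads from transcripts that run past these lines could not be assigned to a strand.

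For each of the 7 genes, the 2 genes nearest in pattern were sought among all genes whose highest FPKM was at least 10, by the Euclidean distance of log2(FPKM + 1) over the 4 libraries, centred on each gene's mean. Nearest to Lhx2 were Sema5a (distance 0.12) and Suclg2 (0.13). Nearest to Meis2 were Slitrk6 (0.13) and Prdm8 (0.20), and nearest to Six3 were Zfp467 (0.10) and Mboat2 (0.16). Rax had Nit1 (0.01) and Vps24 (0.03), Six6 had Rbmx (0.06) and Aldh18a1 (0.06), and Meis1 had AI846148 (0.05) and Enah (0.08), all patterns with little variation over the libraries. Pax6 had no gene as near, since Cacng4 and Rbfox2 lay at 0.56. Cacng4 had an FPKM of 39.6, 25.8, 5.58 and 16.7 in the order P1 pHes1_ENC, P1 pHes1_EPC, P4 pHes1_ENC and P4 pHes1_EPC. Among the 7 genes themselves, Six3 and Six6 had the smallest distance at 0.77, but Six6 and Meis1, and Rax and Meis1, were almost as close at 0.78. Many genes outside the 7 lay nearer to Six3 than Six6 did, and nearer to Six6 than Six3 did. The distance thus did not set the paralogues apart as a pair. Lhx2 and Meis2 were the farthest apart at 5.35. A distance over 4 libraries is a description of likeness and carries no error.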

How the data were processed

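Total RNA of sorted retinal cells was sequenced in 4 libraries, 1 per fraction and age, as single-end reads of 36 bases from randomly primed cDNA. The authors aligned the reads to NCBI37/mm9 with TopHat2 2.0.8b, after bcl2fastq 1.8.4, and estimated gene FPKM, each with its 95% interval and status, with Cufflinks 2.1.1. These deposited FPKM are divided by transcript length and library size, and their sum over all lines was 342618 to 450080. Read counts were not used here. The interval widths correspond to 466 to 8169 reads for a value of the 7 genes, and intervals cover no spread between animals.

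Lines were joined by symbol and position, small RNAs were left out by symbol, and a repeated symbol kept its highest line. Differences are on log2(FPKM + 1), which understates those of low genes, and past 2-fold means past 1 on that scale. Shares of all genes rest on 12941 genes that reached an FPKM of 1 in any library. Named genes are the 7 members, the 2 nearest patterns of each, the extremes at P4 of each list and list genes described by role. The members and lists were chosen with earlier results of these data known. The procedure was tested on simulated data with planted changes past the threshold and counting error only. Spread between animals or sorts was not simulated. Python 3.11.15, numpy 2.4.6, pandas 2.3.3 and matplotlib 3.10.9 were used. Alternatives were other pseudocounts, scalings, filters and non-overlapping intervals. Values of some list genes are not reported here.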

Additional observations from a re-analysis of the deposited data

Results flagged for a closer look

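Pax6, Rax and Meis2 were picked out because their differences pointed in opposite directions in 2 ages or fractions with intervals that did not overlap. The log2 difference of Pax6, pHes1_EPC minus pHes1_ENC, was -0.95 at P1 and 2.12 at P4. That of Rax was -0.10 at P1 and 0.15 at P4, and its P4 sign turned with 3 other scalings. The log2 difference of Meis2, P4 minus P1, was -0.56 in pHes1_ENC and 1.33 in pHes1_EPC. With 1 library in each group these differences between ages and fractions were not tested.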

How the results depend on the processing

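No paired analysis was possible because each group holds 1 library and the labels give no replicate numbers, and for the same reason no library could be left out. No called difference of the 7 genes turned its direction under the pseudocounts, scalings or summed lines that were tried. The signs that turned were of differences within 2-fold, for Rax at P4 and within pHes1_ENC and for Six6 within pHes1_EPC, with the values given in the report. The count of the 7 genes more than 2-fold lower in pHes1_EPC at P1 was 1 and became 2 with the FPKM rescaled to the same total and 2 after quantile normalization, where Pax6 joined Meis2. The share of all genes in that direction was 11.5% as deposited, 15.2% at the same total and 11% after quantile normalization. Counting intervals that do not overlap, at any fold, gave 3 higher and 4 lower in pHes1_EPC at P1, 5 higher and 2 lower at P4, 1 higher and 6 lower at P4 than at P1 in pHes1_ENC, and 2 higher and 1 lower in pHes1_EPC, where the shares of all genes were 34.9% and 32.7%, 44.3% and 29.2%, 27.4% and 31.5%, and 43.3% and 22.9% in the same order. Within pHes1_EPC, 7 of the 55 list genes with an FPKM of at least 1 were more than 2-fold higher at P4 than at P1. That was 12.7%, beside 7.04% of all genes, and the count became 13 with no pseudocount, where 11.7% of all genes were higher. In the same comparison 2 list genes were lower (3.64%, beside 4.33% of all genes). The count of lower list genes became 5 with the FPKM at the same total, where the share of all genes was 10.4%. The other 70 of 80 counts of the 7 genes and 46 of 48 counts of the lists stayed within 1.5 times of their value. The share of all genes past 2-fold moved by over 1.5 times in 26 of 80 alternatives, and the median of a list moved by 0.25 or more on the log2 scale in 18 of 120, of which the paralogues at P1 moved most, from -1.27 to -3.95 with no pseudocount. The half-width of the intervals of the 7 genes was at most 9.27% of the value, and the intervals do not cover the spread between replicates.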
